A study of Mus musculus with 12 samples.

Results

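The genes described here are the keratins, desmosomal cadherins and cornified envelope genes of stratified skin, with Trp63, as measured in bulk RNA of mouse mammary tumours. They were chosen by symbol (numbered keratins, Krtap, Lce, Sprr, Dsg and Dsc families, Lor, Flg and Trp63), leaving out the simple-epithelium keratins Krt7, Krt8, Krt18 and Krt19, and each had to reach 1 TPM in at least 1 of 12 libraries. Of 23667 gene symbols, 119 matched by name and 71 of those reached the level. TPM, a relative transcript abundance, scales every library to the same total, so the read depth behind a value is unknown. Lce1a2 entered at 1.02 TPM and Krtap3-2 stayed outside at 0.999 TPM.

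The tumours were grown from 4T1, a mouse mammary carcinoma line, and as bulk tissue they also hold host cells of the mouse. They carried either control cells (CTRL) or cells depleted of TREX1, a cytosolic DNA exonuclease, by CRISPR-Cas9 (labelled TREX1 KO, here KO). Mice received 200 ug anti-PD1 with 100 ug anti-CTLA4 (ICB, immune checkpoint blockade) or isotype antibodies (IgG), 3 times weekly for 1 week, and each of the 4 groups had 3 libraries. The labels used here give neither the strain and age of the mice nor whether the KO cells were 1 clone. Trex1 RNA lay between 56.0 and 72.2 TPM in KO libraries and between 32.8 and 46.2 TPM in CTRL libraries, so its level goes against a loss of transcript, and KO stands throughout for the label. Replicates 2 and 3 of KO-IgG were nearly identical, as were replicates 1 and 2 of KO-ICB (robust SD of their log2 ratio 0.0612 and 0.0377, against 0.216 to 0.598 in the other 10 within-group pairs), and each pair was averaged and counted as 1 sample. Tests therefore used 10 samples (3 per CTRL group, 2 per KO group). KO-IgG replicate 1 held almost no Epcam, an epithelial adhesion molecule made by 4T1 cells (0.661 TPM, against 87.1 to 1239 TPM in the other libraries).

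Skin is built of layers in which a keratinocyte changes its keratins as it moves outward: Krt5 and Krt14 form the filaments of the basal layer, Krt1 and Krt10 those above it, and Krt6, Krt16 and Krt17 are induced by wounding. In the outermost cells, filaggrin bundles keratin, and loricrin, small proline-rich (Sprr) and late cornified envelope (Lce) proteins are crosslinked under the membrane into the cornified envelope. Tissue excised with a tumour can include skin, and mammary carcinoma cells can themselves make basal keratins such as Krt14.

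The 36 cornified envelope genes lie together in the epidermal differentiation complex on chromosome 3 (GRCm38 92080271 to 93293686), and all 36 were highest in the same 2 libraries, as described below. The 250 bases before the transcription start are shown for 3 of them (Lor, Sprr1a, Sprr1b), for Krt13, which did not follow them, and for the basal keratin Krt5. Sequences are RefSeq promoter windows on GRCm38.p6, written 5′ to 3′ on the strand of the gene. Capitals mark TATAAA, the TATA box, and TGANTCA, the motif bound by AP-1 factors, searched on both strands.
Lor (chr3:92083143-92083392, minus strand): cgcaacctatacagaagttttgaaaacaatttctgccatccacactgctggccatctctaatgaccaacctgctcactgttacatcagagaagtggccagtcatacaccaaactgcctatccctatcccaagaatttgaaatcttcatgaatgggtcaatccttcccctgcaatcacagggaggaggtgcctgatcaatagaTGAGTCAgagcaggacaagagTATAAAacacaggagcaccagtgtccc
Sprr1a (chr3:92485882-92486131, minus strand): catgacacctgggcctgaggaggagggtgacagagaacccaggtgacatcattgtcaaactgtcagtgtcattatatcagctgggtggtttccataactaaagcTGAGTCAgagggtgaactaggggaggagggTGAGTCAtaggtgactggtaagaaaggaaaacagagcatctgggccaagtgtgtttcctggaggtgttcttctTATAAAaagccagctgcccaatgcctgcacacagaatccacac
Sprr1b (chr3:92438780-92439029, minus strand): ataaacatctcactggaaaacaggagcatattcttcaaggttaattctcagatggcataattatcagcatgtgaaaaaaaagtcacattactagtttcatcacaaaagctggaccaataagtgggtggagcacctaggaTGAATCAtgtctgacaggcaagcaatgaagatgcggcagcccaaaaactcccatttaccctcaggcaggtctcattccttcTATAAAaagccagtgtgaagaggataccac
Krt13 (chr11:100121567-100121816, minus strand): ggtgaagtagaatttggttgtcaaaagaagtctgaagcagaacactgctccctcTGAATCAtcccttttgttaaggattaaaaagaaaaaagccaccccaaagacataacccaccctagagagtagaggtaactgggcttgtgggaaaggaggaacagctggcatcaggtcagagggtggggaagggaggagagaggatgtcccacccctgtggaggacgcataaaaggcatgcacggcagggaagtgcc
Krt5 (chr15:101712906-101713155, minus strand): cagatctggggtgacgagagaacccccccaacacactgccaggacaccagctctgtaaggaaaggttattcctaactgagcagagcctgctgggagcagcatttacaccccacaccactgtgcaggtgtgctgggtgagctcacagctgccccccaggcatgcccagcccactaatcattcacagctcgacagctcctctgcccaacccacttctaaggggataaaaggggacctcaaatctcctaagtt

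Sprr1a held 2 AP-1 motifs and 1 TATAAA, Sprr1b and Lor held 1 of each, Krt13 held 1 AP-1 motif, and neither was found in the Krt5 window. Only exact letters were counted. Near matches to TATAAA, such as gataaaa in the Krt5 window and cataaaa in the Krt13 window, were not. RefSeq windows matched 52 of the 71 genes, giving 53 windows because Krt13 has a second one. TGANTCA occurred in 13 of these 53 (24.5%), and in 6.75% of 32851 mouse windows of the same length. It occurred in 8 of 12 Sprr windows and in 0 of 20 Lce windows, both families of the same complex. TATAAA occurred in 23 of 53 windows (43.4%) and in 12.4% of all windows. Most of the 23 were Krtap windows (8 of 8) and Sprr windows (8 of 12). Loricrin and filaggrin had it in 2 of 2, Lce in 4 of 20 and suprabasal keratins in 1 of 5. Basal genes had it in 0 of 2, and mucosal and other keratins in 0 of 4. Desmosomal cadherins and the wound keratins Krt16 and Krt17 had no window. A match is a string of letters and not a measured binding site.

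Skin transcripts were concentrated in 2 CTRL tumours, CTRL-IgG replicate 3 and CTRL-ICB replicate 3. Summed over the 71 genes they reached 8262 TPM (0.826% of the library) and 17863 TPM (1.79%), against 15.4 to 581 TPM in the other 10 libraries. Of the 71 genes, 53 were higher in both of these libraries than in any of the other 10, and 42 of the 53 had over 95% of their 12-library sum in them. Among the other 10 libraries, CTRL-ICB replicate 1 was the highest for 30 of the 53, and 10 of the 53 were listed at 0 in all 10. Those 10, and others under 1 TPM outside the pair such as Dsc1, entered the 71 only through libraries where they were high. The counts of 53 and 42 therefore describe a list so selected and support no difference. The share of all genes higher in both libraries is not given here. The pair, called skin-rich below, came from different treatments but the same genotype. Skin-rich refers to the level of these genes, and which cells made the transcripts was not measured. In bulk RNA, more cells that make them and more RNA per cell cannot be told apart.

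**Figure D1:**
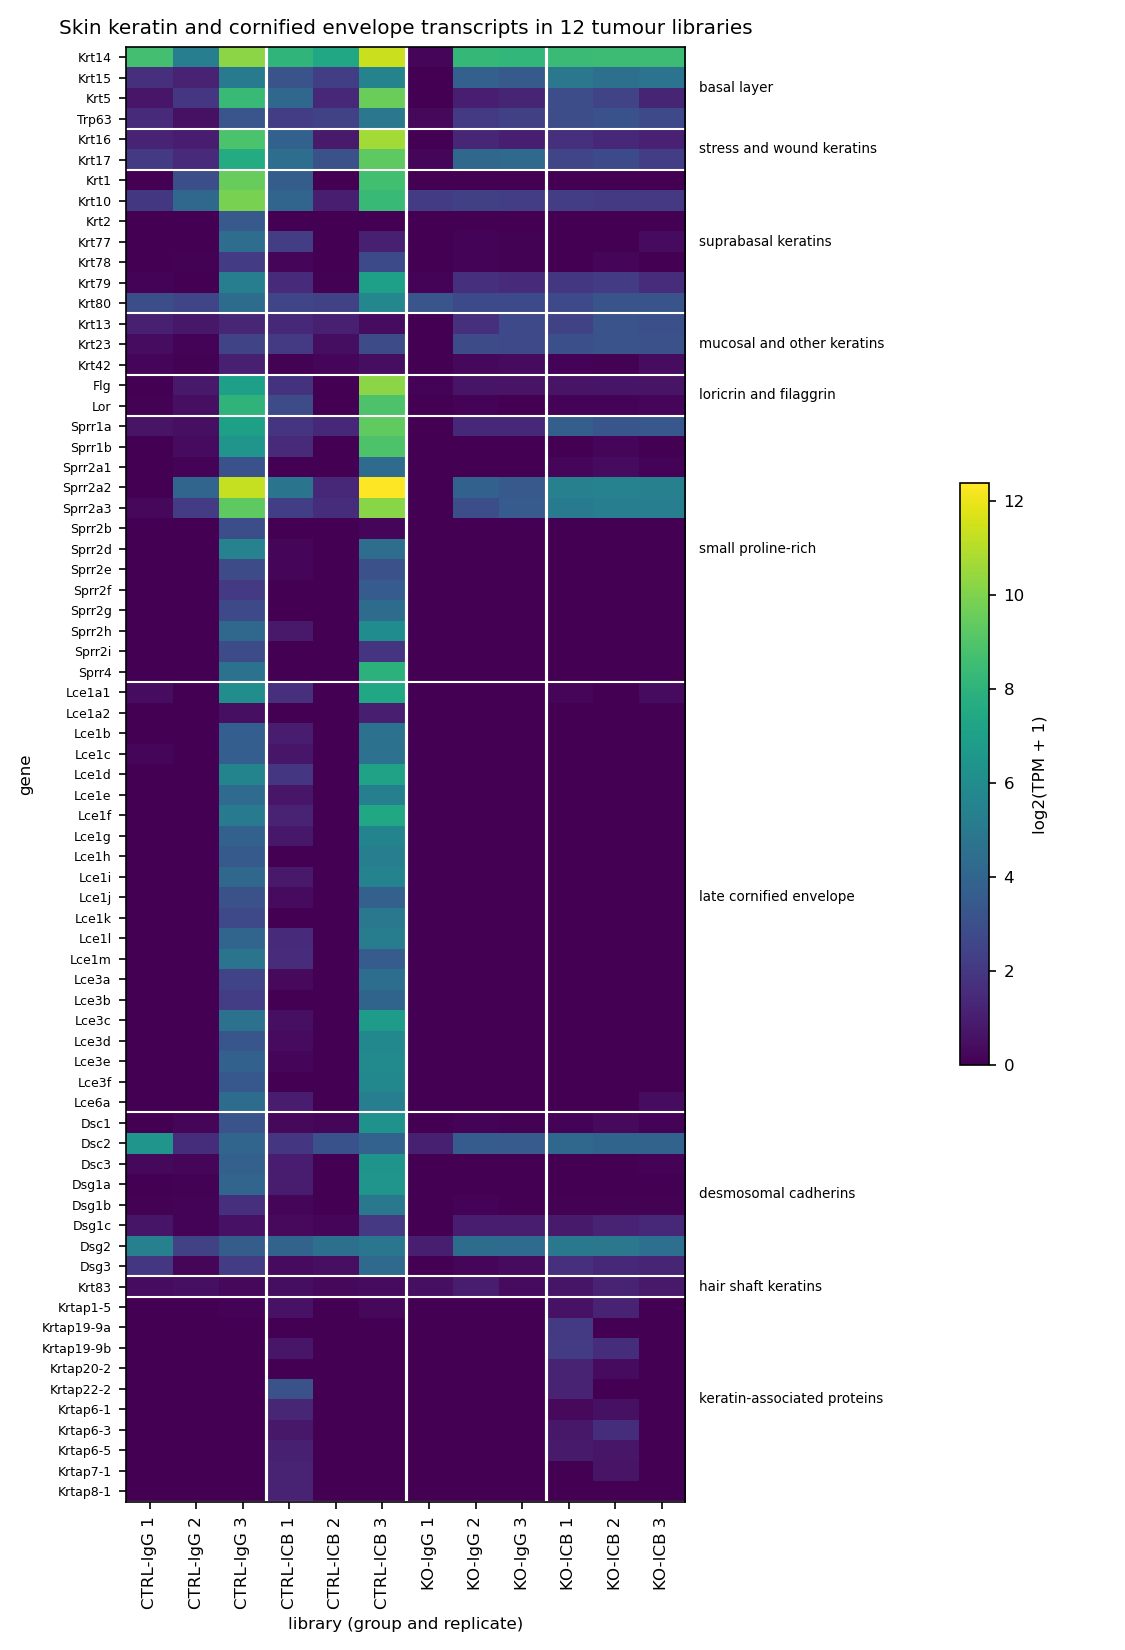
Heat map of log2(TPM + 1) of the 71 genes (rows, ordered by role) in the 12 libraries (columns, by group and replicate). CTRL-IgG replicate 3 and CTRL-ICB replicate 3 stand out in most roles, with 58 and 56 genes at 1 TPM or more, against 4 to 31 in the other libraries.

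The highest level outside the pair was that of Krt14, the acidic partner of Krt5 (chromosome 11, 100203162 to 100207548, minus strand). In the order of the replicate numbers, kept for all genes below, its TPM were 413, 38.1 and 1194 in CTRL-IgG and 275, 172 and 2640 in CTRL-ICB. In KO-IgG they were 0.148, 307 and 293, and in KO-ICB 349, 358 and 361. Krt14 was thus abundant in nearly every tumour, with the 2 highest values in the skin-rich libraries and near absence in KO-IgG replicate 1.

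Krt5, its basic partner (chromosome 15, 101707070 to 101712898, minus strand), was not abundant in most tumours. Its TPM were 0.654, 2.90 and 328 in CTRL-IgG, 17.2, 1.70 and 770 in CTRL-ICB, 0, 1.08 and 1.42 in KO-IgG, and 6.68, 4.74 and 1.44 in KO-ICB. Only the skin-rich libraries exceeded 20 TPM. The ratio of Krt5 to Krt14 was 0.275 in CTRL-IgG replicate 3 and 0.292 in CTRL-ICB replicate 3, close to each other, and lay between 0 and 0.0761 in the other 10 libraries.

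Krt14 could also be set beside Epcam. Krt14 was 22.4% to 45.7% of the Epcam level in the other 10 libraries, including KO-IgG replicate 1 where both were under 1 TPM, and 198% and 405% in CTRL-IgG replicate 3 and CTRL-ICB replicate 3. In those 10 libraries the 2 genes therefore kept a narrow ratio while their levels ranged widely. CTRL-ICB replicate 1 held 17.2 TPM of Krt5, and if that Krt5 had come with Krt14 at the ratio of the skin-rich libraries, it would account for 58.9 to 62.5 of its 275 TPM of Krt14. In the other libraries outside the skin-rich pair this amount was at most 24.3 TPM, in KO-ICB replicate 1. As a part of the Krt14 level it was largest in CTRL-IgG replicate 2, at 9.95 to 10.6 of 38.1 TPM. That library had the highest ratio of Krt5 to Krt14 outside the pair (0.0761, against 0.0624 in CTRL-ICB replicate 1). Which cells made the Krt14 was not measured. Of the 31-base words of Krt14 transcripts, 28.2% also occur in other genes, mostly Krt16 (17.6%), so part of its level is uncertain.

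**Figure D2:**
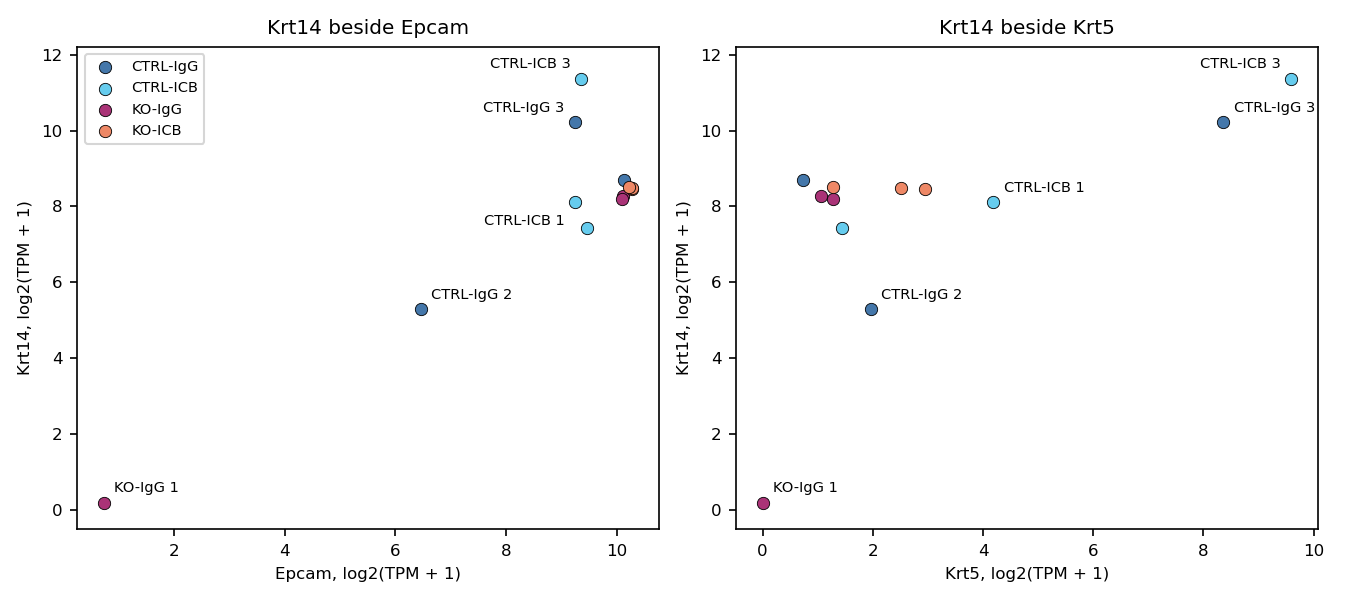
Krt14 against Epcam and against Krt5 in the 12 libraries (log2(TPM + 1) on each axis, 1 point per library, coloured by group). CTRL-IgG replicate 3 and CTRL-ICB replicate 3 lie off the range of the others in both panels, with Krt5 at 328 and 770 TPM.

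Krt15, a keratin of basal and hair-bulge cells, also had a level outside the skin-rich libraries. Its TPM were 2.32, 1.29 and 34.4 in CTRL-IgG, 7.99, 3.88 and 45.4 in CTRL-ICB, 0, 12.9 and 10.2 in KO-IgG, and 29.0, 22.8 and 24.9 in KO-ICB. The skin-rich libraries held 40.9% of its 12-library sum, the lowest share among the 53 genes. Trp63, the transcription factor p63 of stratified epithelia, stood at 8.75 and 29.5 TPM in the skin-rich libraries and at 0.208 to 7.56 TPM elsewhere, highest among the rest in KO-ICB.

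The wound keratins followed the skin-rich pair. Krt16 stood at 471 and 1629 TPM in CTRL-IgG replicate 3 and CTRL-ICB replicate 3. Next came CTRL-ICB replicate 1 with 13.5 TPM, and the other 9 held 0 to 2.20 TPM. Krt17 stood at 194 and 624 TPM in the pair, followed by CTRL-ICB replicate 1 with 21.2 TPM and the near-identical KO-IgG libraries with 16.4 and 17.7 TPM, and the rest held 0.149 to 7.33 TPM. Their partners Krt6a and Krt6b, which the symbol rule leaves out, showed the same order: Krt6a stood at 253 and 1077 TPM in the pair and at most 5.83 TPM elsewhere. Of the Krt16 words, 51.9% recur in other genes.

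Suprabasal keratins broke the order of the pair. Krt1, which pairs with Krt10 in differentiating epidermis, reached 713 TPM in CTRL-IgG replicate 3 and 400 TPM in CTRL-ICB replicate 3. CTRL-ICB replicate 1 had 11.5 TPM and CTRL-IgG replicate 2 had 6.86 TPM, and the gene was listed at 0 in the other CTRL and in all KO libraries. Krt10 stood at 943 and 319 TPM in the pair, and at 1.09 to 17.1 TPM in the other 10, highest in CTRL-IgG replicate 2. So the basal and wound keratins were higher in CTRL-ICB replicate 3, and the main suprabasal pair was higher in CTRL-IgG replicate 3. Krt2, a keratin of the upper epidermis, was listed at 0 everywhere but in CTRL-IgG replicate 3 (10.1 TPM). Krt77, a type II keratin, stood at 20.5 TPM there, 3.69 TPM in CTRL-ICB replicate 1 and 1.14 TPM in CTRL-ICB replicate 3, while Krt79, known in mouse from the hair canal, stood at 37.9 and 127 TPM in the pair and at most 3.41 TPM elsewhere. Krt80, a keratin of many epithelia, was found in every library, at 19.6 and 51.8 TPM in the pair and 4.19 to 8.67 TPM in all the others. Its highest value among those 10 was in KO-IgG replicate 1, the library with almost no Epcam.

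Cornified envelope genes were low outside the skin-rich pair. Lor, loricrin (chromosome 3, 92080271 to 92083142, minus strand), reached 260 and 479 TPM in them, with 6.33 TPM in CTRL-ICB replicate 1 and 0 to 0.412 TPM in the other 9. Flg, filaggrin, stood at 128 and 1212 TPM in the pair, with 2.46 TPM in CTRL-ICB replicate 1 and 0 to 0.794 TPM in the other 9. Both therefore put the same 3 libraries in the same order, but Flg differed far more within the pair. Lor of CTRL-ICB replicate 1 was 1.32% of its level in CTRL-ICB replicate 3, and Lor of the remaining libraries outside the pair was at most 0.0861% of it.

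The Sprr family made up the largest share of the 71-gene sum in the pair, 41.7% in CTRL-IgG replicate 3 and 45.1% in CTRL-ICB replicate 3. Sprr2a2 stood at 2467 and 5331 TPM in the pair, and Sprr2a3 at 640 and 1179 TPM. Nearly all Sprr2a1 and Sprr2a2 words (96.9% and 97.8%) and 73.6% of Sprr2a3 words occur in other genes, so the 3 copies are best read as a sum. In TPM, that sum was 0.189, 18.8 and 3115 in CTRL-IgG, 29.7, 3.79 and 6529 in CTRL-ICB, 0, 20.2 and 20.8 in KO-IgG, and 75.8, 82.8 and 78.4 in KO-ICB. Outside the pair, the KO-ICB libraries were the highest. Sprr1a, an early-expressed envelope precursor, stood at 131 and 664 TPM in the pair, at 12.3, 8.85 and 9.30 TPM in KO-ICB, and at 0 to 2.58 TPM in the other 7. Its neighbour Sprr1b stood at 85.5 and 485 TPM in the pair, with 1.84 TPM in CTRL-ICB replicate 1 and 0 to 0.289 TPM elsewhere, so KO-ICB held Sprr1a at a low level with almost no Sprr1b. Sprr4 was listed at 0 outside the pair and stood at 23.5 and 247 TPM within it. Sprr2h stood at 17.0 and 62.9 TPM in the pair. Sprr2b and Sprr2d went the other way within the pair, at 6.83 and 43.8 TPM in CTRL-IgG replicate 3 against 0.145 and 20.7 TPM in CTRL-ICB replicate 3.

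All 21 Lce genes reached 1 TPM, and each was higher in the skin-rich pair than elsewhere. Their sum was 373 and 1131 TPM in the pair, and its median over the other 10 libraries was 0 TPM (range 0 to 16.5). Lce1a1, the most abundant, stood at 67.3 and 169 TPM, Lce1d at 47.7 and 138 TPM, Lce1f at 34.7 and 162 TPM and Lce3c at 24.6 and 109 TPM. CTRL-ICB replicate 1 was the next library, with 2.25 TPM of Lce1a1 and 2.85 TPM of Lce1d. Another 13 Lce genes (Lce1b, Lce1c, Lce1e, Lce1g, Lce1h, Lce1i, Lce1k, Lce1l, Lce3a, Lce3d, Lce3e, Lce3f, Lce6a) had 4.85 to 19.5 TPM in the first library of the pair and 21.3 to 60.1 TPM in the second, CTRL-ICB replicate 3. Lce1m, at 26.4 and 11.3 TPM, ran against the rest of its family within the pair. Several Lce genes are near-copies (58.8% of Lce1i words and 60.3% of Lce3d words recur elsewhere), so single values carry that uncertainty.

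The desmosomal cadherins, the adhesive proteins of desmosomes, did not all follow the skin-rich pair. Of those of stratified epithelium, 5 were higher in it than elsewhere: Dsc1 stood at 7.91 and 77.6 TPM, Dsc3 at 12.9 and 84.5 TPM, Dsg1a at 15.3 and 85.6 TPM, Dsg1b at 2.16 and 30.2 TPM, and Dsg3 at 3.59 and 17.5 TPM. Dsg1c, another desmoglein 1 copy, was not among them, with 0.544 and 3.10 TPM in the pair, 0.0755 to 0.628 TPM in the other CTRL libraries and 0 to 1.63 TPM in KO. Dsg2 and Dsc2, which are also made by simple epithelia, were not either. The TPM of Dsc2 were 85.9, 2.08 and 15.7 in CTRL-IgG, 2.94, 7.73 and 13.8 in CTRL-ICB, 1.13, 11.3 and 10.9 in KO-IgG, and 17.0, 15.1 and 14.4 in KO-ICB. Its highest library, CTRL-IgG replicate 1, held 0.0423 TPM of Lor. Dsg2 ranged from 1.05 TPM in KO-IgG replicate 1 to 41.2 TPM in CTRL-IgG replicate 1, with the pair at 11.7 and 27.9 TPM inside that range. The 8 genes lie on chromosome 18 between 19960930 and 20604521. Dsg1a and Dsg1b share 41.4% and 60.0% of their words with other genes.

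**Figure D3:**
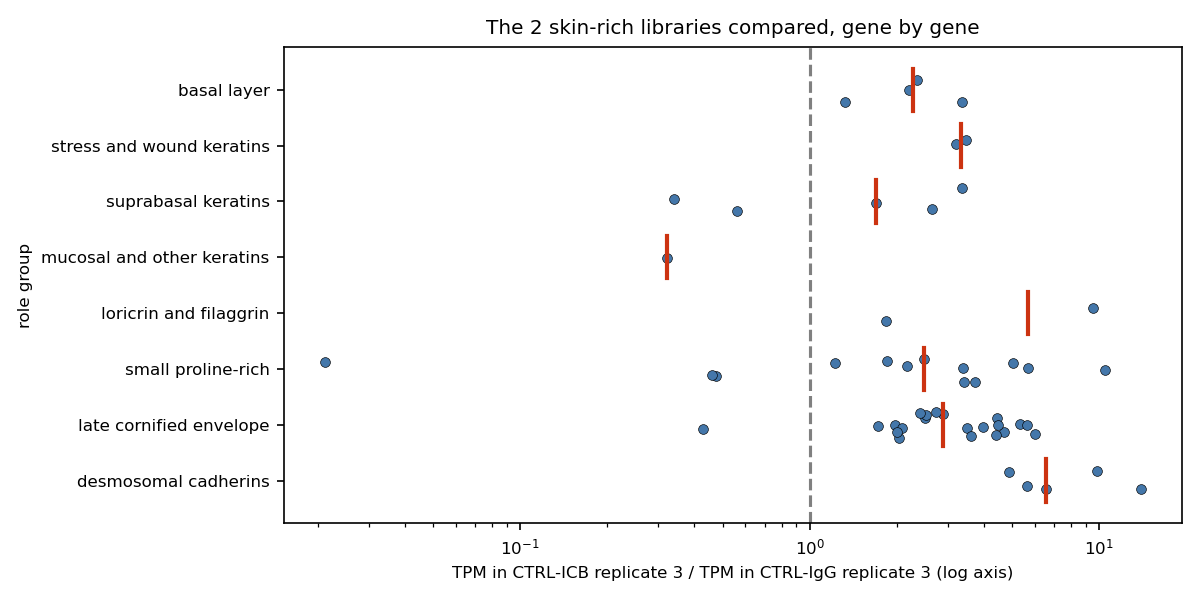
Ratio of CTRL-ICB replicate 3 to CTRL-IgG replicate 3 for each of the 53 skin-rich genes (log axis, 1 point per gene, grouped by role, red bars for each role's median, dashed line at a ratio of 1). The median over the 53 was 2.89, 46 genes were higher in CTRL-ICB replicate 3, and the 7 below a ratio of 1 include Krt1, Krt10, Sprr2b and Lce1m.

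The 2 skin-rich libraries differed in the shares of the layers as well as in amount. Suprabasal keratins were 21.2% of the 71-gene sum in CTRL-IgG replicate 3 and 5.07% in CTRL-ICB replicate 3, and loricrin with filaggrin 4.70% and 9.47%. The basal layer took close shares, 19.0% and 19.5%. The ratio between the 2 libraries ran from 0.0212 for Sprr2b to 14.0 for Dsg1b, and with 1 library each it has no replicate check.

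Most keratinocyte markers outside the 71 followed the pair. Of 22 such genes, 20 were higher in both libraries than elsewhere, all but Pkp3 and Serpinb5. The 22 summed to 4435 and 9767 TPM against 83.6 to 768 TPM. This list was chosen with earlier results of these data known. No share over all genes is given beside the count, so it describes the listed genes only. Krtdap, a keratinocyte differentiation gene, stood at 1170 and 2258 TPM, 35.4 TPM in CTRL-ICB replicate 1 and 6.24 TPM in CTRL-IgG replicate 2. Asprv1, the protease that processes filaggrin, stood at 154 and 750 TPM. Markers of 4T1 and simple epithelium did not stand out in the pair, at 3764 and 3628 TPM against 1487 to 6160 TPM elsewhere. Hair follicle and sebaceous markers summed to 18.6 and 31.1 TPM against 9.27 to 16.1 TPM elsewhere. In the pair, 4 of 11 were higher: Elovl3, Awat1, Hoxc13 and Mc5r. Elovl3 stood at 5.86 and 9.99 TPM in it (at most 0.410 elsewhere) and Awat1 at 1.77 and 4.43 TPM (at most 0.0549). Padi3, at 5.04 to 9.04 TPM in every library, was not higher. Melanocyte markers summed to 2.28 and 1.25 TPM in the pair and to 0.630 to 2.14 TPM elsewhere. Of the 6, only Tyrp1 was higher in the pair (0.218 and 0.232 TPM, at most 0.0260 elsewhere), and Tyr was at most 0.0466 TPM. These counts also have no share over all genes beside them. Csn2 and Wap were not among the gene symbols with TPM values. Their mammary secretory companions summed to 1.5 to 36.5 TPM.

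Keratin-associated protein genes and the hair shaft keratin Krt83 were not higher in the skin-rich pair. Of 32 keratin-associated protein genes in the table, which encode the matrix around hair keratins, 10 reached 1 TPM, and only in CTRL-ICB replicate 1 (summed 14.5 TPM), KO-ICB replicate 1 (11.6 TPM) and KO-ICB replicate 2 (7.47 TPM), the last pair being the near-identical libraries counted as 1 sample. CTRL-IgG replicate 3 and CTRL-ICB replicate 3 held 0.0781 and 0.205 TPM, and the other 7 were listed at 0. Krtap22-2 was highest, at 7.36 TPM in CTRL-ICB replicate 1. Hoxc13, a regulator of hair shaft genes, did follow the pair at low levels, with 0.292 and 0.445 TPM in it and at most 0.0983 TPM elsewhere. Of the hair shaft keratins, 10 of 11 stayed below 1 TPM, the exception being Krt83 at 0.198 to 1.25 TPM.

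Krt13 and Krt23 were highest in KO-ICB tumours and not in the skin-rich ones. Krt13, which pairs with Krt4 in mucosal epithelium (chromosome 11, 100117327 to 100121566, minus strand), had TPM of 1.14, 0.735 and 1.55 in CTRL-IgG, 1.69, 1.10 and 0.326 in CTRL-ICB, 0, 2.20 and 5.65 in KO-IgG, and 4.51, 8.06 and 7.13 in KO-ICB. All KO-ICB libraries were above all CTRL libraries. Its partner Krt4 reached at most 0.669 TPM. Krt23, an acidic keratin, stood at 4.83 and 6.08 TPM in the skin-rich pair, at 0.083 to 3.26 TPM in the other CTRL libraries, at 0, 6.02 and 5.68 TPM in KO-IgG and at 7.10, 8.03 and 7.45 TPM in KO-ICB. KO-IgG replicate 1 was therefore low for both, and it had 60 of the 71 genes listed at 0 and 4 at 1 TPM or more.

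**Figure D4:**
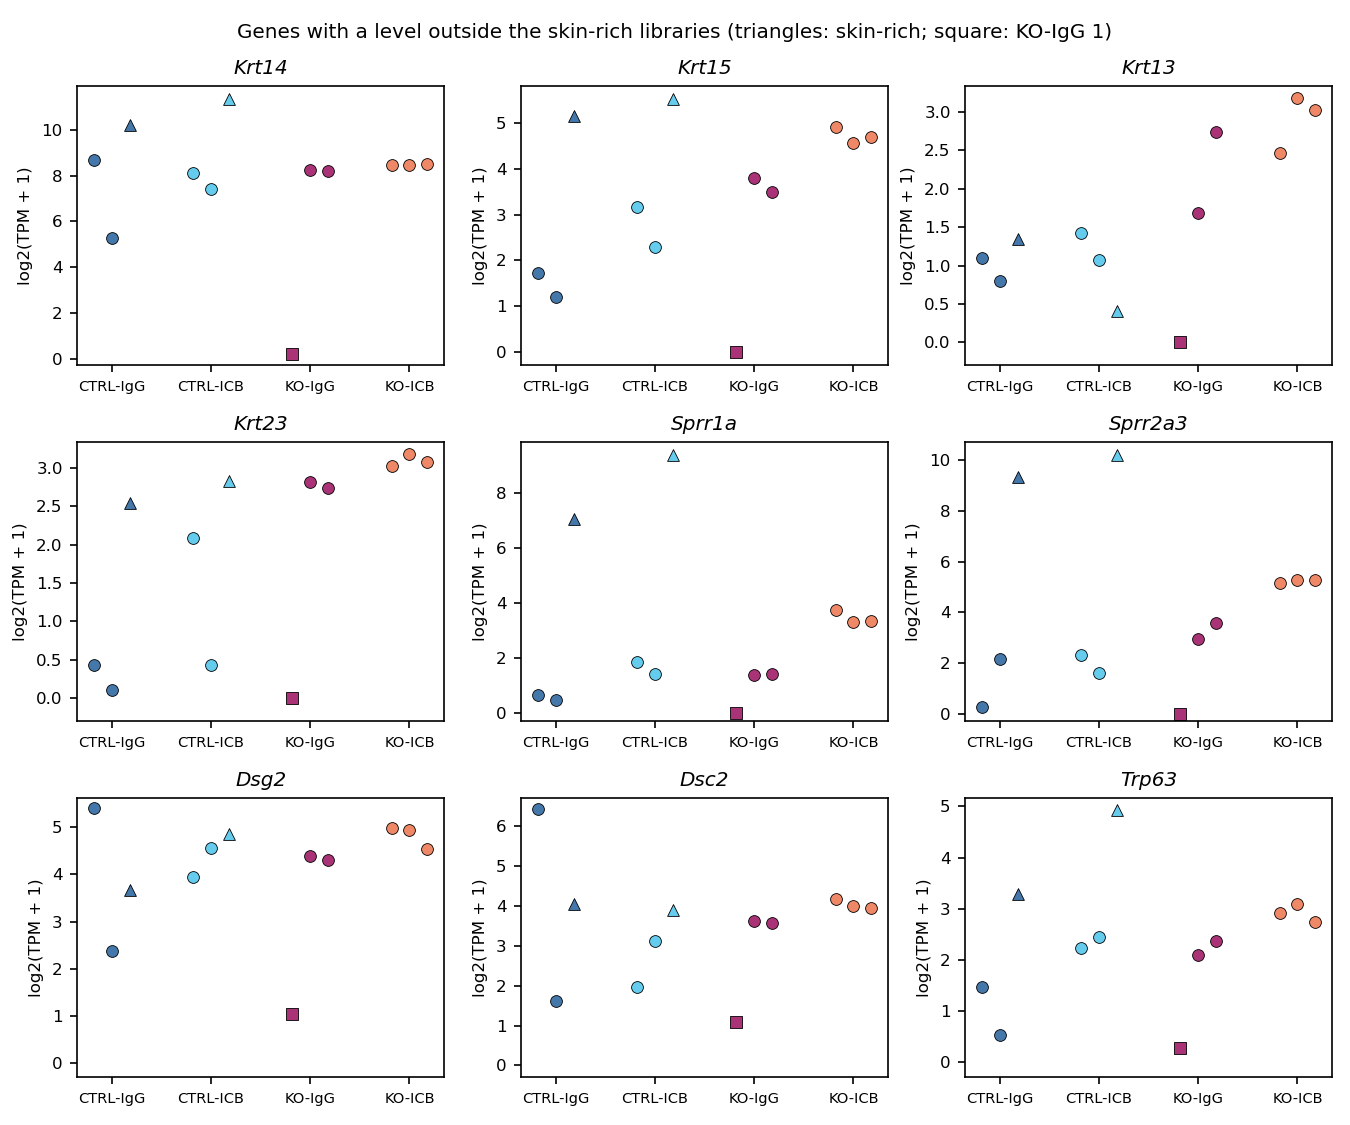
Values, as log2(TPM + 1), of 9 genes with a level outside the skin-rich pair, by group, 1 point per library (triangles, the skin-rich pair; square, KO-IgG replicate 1). Krt13 lies at 4.51 to 8.06 TPM in KO-ICB and at 0.326 to 1.69 TPM in CTRL libraries.

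Genotype was compared first, averaged over both treatments, by limma on log2(TPM + 1) over 13886 genes, with Benjamini-Hochberg adjustment. Of the 71 genes, 28 entered the test, because 43 did not reach 1 TPM in 3 libraries, a filter that a gene high in only the pair cannot pass. None of the 28 was called at an adjusted p under 0.05, while 0.108% of all genes were called. An unadjusted p under 0.05 was found for 1 of the 28 and for 1602 of the 13886 genes. Of the 28, 10 (Flg, Krt1, Krt77, Lce1a1, Lce1d, Lce1f, Lce1l, Lce1m, Lor and Sprr1b) reached 1 TPM in CTRL libraries only, so the filter let them in only through the group where they were high, and the medians and counts of positives below describe a list so selected and support no difference. The median log2 fold change of KO against CTRL was -1.74 over the 28, of which 4 were positive, against -0.03 over all genes. With every gene at 1 TPM in 1 library let in, all 71 entered, none was called, and the median was -1.21 with 11 positive. Without CTRL-IgG replicate 3 and CTRL-ICB replicate 3 the median over the 28 was -0.33 with 11 positive, and again none was called. The 2 skin-rich libraries were both CTRL, and none of the 6 KO libraries was skin-rich. Being skin-rich and the genotype therefore cannot be told apart in the full set.

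Single genes with a tumour level had wide errors. The log2 fold change of Krt14 was -2.17 ± 1.69 (SE, adjusted p = 0.675 by limma), of Krt17 -2.35 ± 1.66 (adjusted p = 0.642), and of Sprr2a2 -2.02 ± 2.67 (adjusted p = 0.817). Krt15 (0.10 ± 1.02), Dsc2 (-0.34 ± 0.89), Dsg2 (-0.42 ± 0.71) and Krt80 (-0.38 ± 0.65) lay within 1 SE of 0. Krt23 was 0.83 ± 0.70 and Krt13 1.02 ± 0.42 (adjusted p = 0.384, the smallest of the 28). Without KO-IgG replicate 1, the library with almost no Epcam, Krt13 was called at 1.60 (adjusted p = 0.0358), in a fit that called 1.97% of all genes. Without 1 sample in turn, Krt14 ran from -4.18 to -0.16. Leaving out the skin-rich libraries turned Sprr2a2 to 1.07, Sprr2a3 from -0.86 to 1.87 and Krt80 to 0.43.

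Genotype was also compared within each treatment. Under IgG none of the 28 was called (all genes 0%). Unadjusted p was under 0.05 for 0 of the 28 and for 715 of the 13886 genes. The median was -1.71 with 3 positive, and 0 with 11 positive without CTRL-IgG replicate 3. Under ICB none was called (all genes 0.0072%). Unadjusted p was under 0.05 for 1 of the 28 and for 1108 of the 13886 genes. The median was -0.98 with 7 positive, and 0.13 with 14 positive without CTRL-ICB replicate 3. The direction of both medians thus came with 1 skin-rich library each. Krt13 had the smallest adjusted p there, a log2 fold change of 1.98 ± 0.59 (adjusted p = 0.442), and its KO-ICB and CTRL-ICB values did not overlap. Dsc2, Krt23 and the hair keratin Krt83 were also higher in KO-ICB without overlap and Krt17 lower, with no call. That makes 4 of 71 higher and 1 of 71 lower, against 15.9% and 15.8% of all genes.

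Checkpoint antibodies were compared within each genotype. In CTRL tumours ICB against IgG gave no call (all genes 0%). Unadjusted p was under 0.05 for 0 of the 28 and for 176 of the 13886 genes. The median was 0.91 with 23 positive, with 1 skin-rich library in each arm. The median was -0.95 with 6 positive without CTRL-ICB replicate 3, 2.44 with 27 positive without CTRL-IgG replicate 3, and 0.76 with 23 positive without both. Leaving out replicate 1 or 2 of CTRL-IgG gave 0.19 and 0.13, and leaving out replicate 1 or 2 of CTRL-ICB gave 1.43 and 2.02, so its size and sign rested on single libraries. In KO tumours ICB against IgG gave no call (all genes 0%). Unadjusted p was under 0.05 for 1 of the 28 and for 443 of the 13886 genes. The median was 0.74 with 22 positive, and 0.24 with 20 positive without KO-IgG replicate 1. In that comparison, over the averaged samples (2 against 2), 19 of the 71 were higher in KO-ICB without overlap, against 16.7% of all genes at 1 TPM or more in a library, and the KO-IgG arm holds KO-IgG replicate 1, the library with almost no Epcam. By single library 5 of the 19 overlapped (Dsg1c, Krt13, Krt83, Lce1a1 and Lor). Dsc1, Dsc3, Lce1a1, Lor and Sprr2a1, also among the 19, stayed under 1 TPM in every KO library, where a lack of overlap says little. Krt13 was 1.79 ± 0.65 (adjusted p = 0.998), and without the averaged KO-IgG pair, which leaves KO-IgG replicate 1 alone and assumed to vary like the other groups, it was called at 2.94 (adjusted p = 0.0308), in a fit that called 1.59% of all genes. Without KO-IgG replicate 1 it was 0.64. Fitted without the skin-rich libraries, Sprr1a was 2.75 ± 0.48 (adjusted p = 0.678). Those libraries are CTRL and not part of this comparison, so leaving them out changed only the spread. Over all 12 libraries Sprr1a was 2.54 ± 2.11 (adjusted p = 0.889 by limma), and KO-IgG replicate 1 was listed at 0. The interaction of genotype and treatment had no call either (all genes 0%), with a median of 0.12 and 16 positive. Unadjusted p was under 0.05 for 1 of the 28 and for 196 of the 13886 genes. The median of the interaction was 1.62 with 28 positive without CTRL-ICB replicate 3 and -1.23 with 9 positive without CTRL-IgG replicate 3. The labels do not say that libraries of a group came from separate mice, so p-values measure the spread between these samples only.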

How the data were processed

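The deposited table holds TPM per gene symbol for 12 libraries, made by the authors with kallisto on GRCm38, per the submitters' processing notes; RNA was poly(A)-selected, per the labels' protocols. TPM columns sum to 1e+06 and keep no read numbers, so no counting intervals are given. The genes and lists were chosen with earlier results of these data known. From TPM, log2(TPM + 1) was fitted with limma 3.58.1 (R 4.3.3, trend and robust) on genes at 1 TPM or more in 3 libraries, with 4 groups, after averaging 2 near-identical library pairs (SD of log2 ratios under 0.1 for genes above 300 TPM). A gene was called at an adjusted p under 0.05. The fit was tested on simulated data. Genes are named when they reached 20 TPM in a library, were called, or led their role, and some others are named beside them. Coordinates are from GENCODE M21, and 31-base words from its transcripts. Promoter windows are from RefSeq. Alternatives were other normalizations, filters, pseudocount, all 12 libraries and left-out libraries. Tables were handled in Python 3.11.15 with pandas 2.3.3.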

Additional observations from a re-analysis of the deposited data

How the results depend on the processing

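The count of called genes among the 71 was 0 in all 6 comparisons under every setting except 2. Averaged over both treatments it ran from 0 to 1 over the left-out libraries, the 1 being Krt13 without KO-IgG replicate 1 (log2 fold change 1.60, adjusted p = 0.0358, limma), where 273 of 13886 genes (1.97%) were called. For KO-ICB against KO-IgG it ran from 0 to 1, Krt13 again, without the KO-IgG pair 2 and 3 (2.94, adjusted p = 0.0308), where 221 genes (1.59%) were called. That fold change was 0.64 without KO-IgG replicate 1. With a replicate block over 12 libraries 0 were called in every comparison. Averaged over both treatments, however, 12 of 28 had an unadjusted p under 0.05, as had 2683 of all 13886 genes, and 259 genes were called. Over 12 libraries without the block, 2 of 28 and 2821 of all genes had such a p. Over averaged samples it was 1 of 28 and 1602 of all genes. Both skin-rich libraries carry replicate number 3, so the block and the pair are not separate. Across groups, 18 same-numbered pairs had r from -0.364 to 0.270, 5 over 0.1, and different-numbered pairs had r from -0.457 to 0.420. These values cannot settle whether replicate numbers pair the samples. Averaged log2 fold changes that turned sign were Krt15 (-0.50 with pseudocount 0.1, and -0.82 to 1.01 over left-out libraries), Dsc2 (-0.97 to 0.29), Dsg2 (-1.24 to 0.41), Krt80 (-0.67 to 0.17, and 0.43 without the skin-rich pair), Sprr2a3 (-1.77 to 0.52, and 1.87 without the pair) and Sprr2a2 (1.07 without the pair). The cause was not tested. Krt14 ran from -4.18 to -0.16 and Krt13 from 0.45 to 1.60 over left-out libraries. Of the recomputed counts 116 were the same and 2 moved, and of the recomputed log2 fold changes 213 kept direction and side, 15 turned sign and 2 passed the threshold. Levels rest on TPM of unknown depth.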

Other observations

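The 6 muscle markers summed to 72.1, 66.1 and 69.2 TPM in KO-ICB and to 6.60 to 28.5 TPM in the other 9 libraries, a tissue signal that did not follow the skin-rich pair. The sum of the myoepithelial markers was highest in CTRL-ICB replicate 1 (188 TPM) and CTRL-IgG replicate 3 (165 TPM). It was 26.5 TPM in CTRL-ICB replicate 3, so a high sum was not shared by the skin-rich pair. Most of each sum was Acta2 (170, 145 and 21.8 TPM in the same order), so the sums describe mainly that gene.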
